A study of Rattus norvegicus with 12 samples.

Results

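The aminoacyl-tRNA synthetases were followed through RNA-seq libraries of rat hepatic progenitor cells (HPCs), immature liver cells that can form hepatocytes and bile duct cells. Members were all lines of the expression table whose symbol is an amino acid letter followed by "ars", with or without a final 1 or 2, together with Eprs, Farsa, Farsb and Tarsl2. The rule found 37 of the 22384 lines that carry a gene symbol: 21 genes for cytosolic enzymes and 16 for mitochondrial ones, whose names end in 2. Fars2, the gene for the mitochondrial phenylalanine enzyme, has a letter outside the rule and was not counted as a member.

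The labels give 12 libraries of cells from gestation day 13.5 in 6 groups of 2. The genotypes are wild type, Tnfrsf1α-/- and Tnfrsf1β-/-, labels that name the TNF receptors TNFR1 and TNFR2. Cells of each genotype were untreated or exposed for 1 hour to TNFα, the cytokine tumour necrosis factor. The sources used here do not give the alleles or clones behind the knockouts, nor whether replicates are separate cultures, so the replicate spread behind every p-value may be technical.

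An aminoacyl-tRNA synthetase joins an amino acid to its tRNA, and the charged tRNA is then carried to the ribosome by elongation factors. The cytosol and the mitochondrion each have their own set, both encoded in the nucleus, although the Gars (glycine) and Kars (lysine) genes each give both enzymes, and mitochondria charge the glutamine tRNA by another route. Eprs joins the glutamate and proline enzymes in 1 protein, and Farsa and Farsb encode the subunits of the cytosolic phenylalanine enzyme. Several cytosolic synthetases sit together in a multi-synthetase complex. When amino acids run short or the endoplasmic reticulum is stressed, the transcription factor ATF4 raises many of the cytosolic genes by binding, with a C/EBP partner, an amino acid response element near their starts.

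That element, TGATGNAA on either strand, was searched in the RefSeq promoters (build GRCr8) from 250 bases before to 50 bases after each gene's start. Of the 37 members 33 had an entry. It was present in 7 of 18 cytosolic promoters (38.9%), in 0 of 15 mitochondrial ones and in 1332 of 33469 promoters in all (3.98%). The 7 genes, which charge tRNAs for alanine, cysteine, isoleucine, methionine, asparagine, threonine and tyrosine, were all among the 11 promoters of cytosolic genes listed as ATF4-driven from background knowledge (63.6%), against 0 of the 7 promoters of other cytosolic genes. The windows below are shown because, among the members searched, the element was found only in cytosolic genes listed as ATF4-driven, though in 7 of 11 of them. Each runs 5′ to 3′ on the strand that reads TGATGNAA, with the element in capitals, and the position of its first base in the gene's direction counts from the start as 1, with no 0.

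Aars, position 10, chr19:55908480-55908509, minus strand: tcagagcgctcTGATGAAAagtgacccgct
Cars, position 18, chr1:208225334-208225363, plus strand: tttccagaatcTGATGCAAccgcggcgccg
Iars, position -24, chr17:15193658-15193687, plus strand: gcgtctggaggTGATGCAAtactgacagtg
Mars, position -17, chr7:65023752-65023781, plus strand: ggagcccacgcTGATGCAAccggaacgggc
Nars, position -14, chr18:60275778-60275807, minus strand: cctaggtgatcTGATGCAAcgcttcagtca
Tars, position -27, chr2:62114811-62114840, plus strand: agctaaccagcTGATGCAAcgggacgccag
Yars, position 39, chr5:146820183-146820212, plus strand: cggagctacgagctcagcTGATGCAAcctg

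Of the 7 windows printed 6 read TGATGCAA and that of Aars reads TGATGAAA. The E-box CACGTG, which MYC binds with its partner MAX, was present in 5 of 18 cytosolic promoters (27.8%: Aars, Farsb, Iars, Tars and Vars), in 1 of 15 mitochondrial ones (6.67%: Ears2) and in 6.42% of all promoters. It does not overlap the element, and a match of letters is not evidence that a factor binds there.

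The deposited values are levels, log2(FPKM + 1), where FPKM counts fragments relative to transcript length and to all mapped fragments. FPKM summed to between 447554 and 472935 in the 4 untreated knockout libraries and to between 1071530 and 2085916 in the other 8, and the depth is unknown without counts. Tnfrsf1a, the gene named by the first knockout label, was at 5.45 and 5.15 in untreated wild type, while the untreated Tnfrsf1α-/- label had 5.94 and 6.13, so the label is not matched by a lower level and those groups are called by their label throughout. Tnfrsf1b was at 0 in untreated wild type and in all 4 Tnfrsf1β-/- libraries, which leaves that label unchecked in untreated cells. Markers of the labelled cell type were uneven. Epcam and Hnf4a were at 0 in 10 libraries and at 3.05 to 3.32 and 5.13 to 5.22 in both TNFα-treated wild-type libraries, while Krt7, a keratin of bile duct cells, was at 7.64 to 15.67 in all 12. In treated wild type the 12 hepatocyte markers summed to 12.2 and 12.3 (log2 of summed FPKM + 1) with 0 at 0, against 3.32 to 4.78 elsewhere with 3 to 10 at 0. Vim, an intermediate filament of mesenchymal cells, was at 1.22 and 1.34 in those libraries and at 8.93 to 10.92 in the other 10. The treated libraries labelled Tnfrsf1α-/- also stood apart from each other: over the 34 members other than Aars, Aars2 and Nars2 they differed by a median of 0.69, up to 2.098 for Iars, against 0.05 to 0.47 between the replicates of the other groups.

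All 37 members passed the filter on low values, which asks that FPKM average 1 or more across all 12 libraries. The cytosolic genes were the more abundant: their median level lay between 4.53 and 6.60 per library and that of the mitochondrial genes between 2.11 and 3.45. By the median over the 12 libraries, Sars (serine) was highest at 7.53 and Mars2, the mitochondrial methionine gene, lowest at 1.73. The narrowest ranges over the 12 libraries were 0.92 for Ears2, 1.07 for Yars2 and Pars2 and 1.32 for Rars. The widest ranges were those of Nars2 at 12.05, Aars at 8.35 and Aars2 at 7.96, followed by Eprs at 4.10, Mars at 3.69 and Lars at 3.52.

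**Figure D1:**
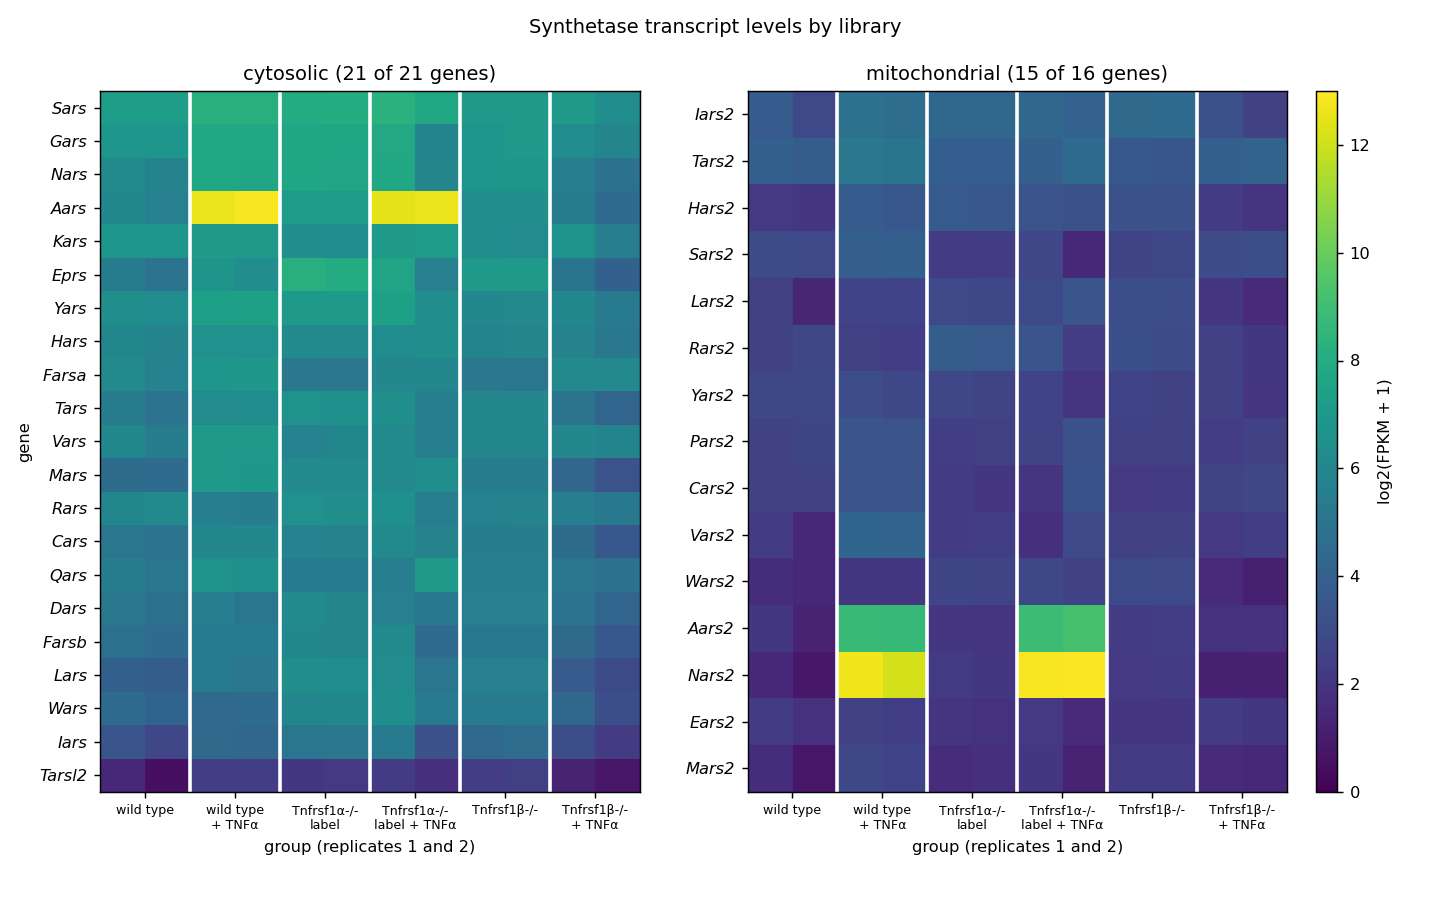
Levels of 36 of the 37 synthetase genes in each library, as log2(FPKM + 1) by colour, with cytosolic genes on the left and mitochondrial ones on the right, ordered by median over the libraries, and columns in pairs of replicates per group. Aars, Aars2 and Nars2 stand out in the TNFα-treated wild-type libraries and those labelled Tnfrsf1α-/-, with levels of 8.69 to 12.90.

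Aars, the cytosolic alanine enzyme, was at 6.05 and 5.67 in untreated wild type and at 12.62 and 12.88 after TNFα. Under the Tnfrsf1α-/- label it went from 7.13 and 7.16 to 12.47 and 12.60, and in Tnfrsf1β-/- at 6.49 and 6.48 untreated and at 5.45 and 4.53 after TNFα. The 4 treated libraries of the first 2 genotypes were thus above all others. Aars2, the mitochondrial alanine enzyme, went from 2.12 and 1.28 to 8.77 and 8.69 in wild type and from 2.07 and 2.01 to 8.93 and 9.24 under the Tnfrsf1α-/- label. It was at 2.33 and 2.42 in untreated Tnfrsf1β-/- and at 1.89 and 1.84 in treated Tnfrsf1β-/-. Nars2, the mitochondrial asparagine enzyme, was at 1.47 and 0.85 in untreated wild type, at 12.74 and 12.15 with TNFα, and at 12.85 and 12.90 in the treated libraries labelled Tnfrsf1α-/-. In the other 6 libraries it lay between 1.13 and 2.29. The same 4 libraries were therefore high for all 3 genes, with no overlap.

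The distance between the lowest of those 4 libraries and the highest of the other 8 was 5.31 for Aars, 6.27 for Aars2 and 9.86 for Nars2. Among the other 34 members the largest was 0.15, for Hars, so the family did not share the pattern. Nars2 ranked between 19 and 67 among all genes in the 4 libraries, beside Eef1a1, the elongation factor that carries charged tRNA, at 11.89 to 12.56, and between 9353 and 9954 elsewhere. Together the 3 genes made up 0.598% to 1.03% of the summed FPKM in the 4 libraries and 0.00221% to 0.0314% in the other 8.

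Over all lines of the file, 96 had such a gap of more than 5, a limit chosen after the values were seen. Of these, 37 (38.5%) have a symbol that starts with A, against 885 of the 11860 genes tested (7.46%). Aars and Aars2 are neighbours in the alphabetical table, on lines 21 and 22, while Nars on line 11637 did not share the gap of Nars2 on line 11638. What part the place in the table has in these values was not tested. Unless stated, the counts below include these 3 genes. Only those for TNFα in wild type and under the Tnfrsf1α-/- label are also given without them.

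**Figure D2:**
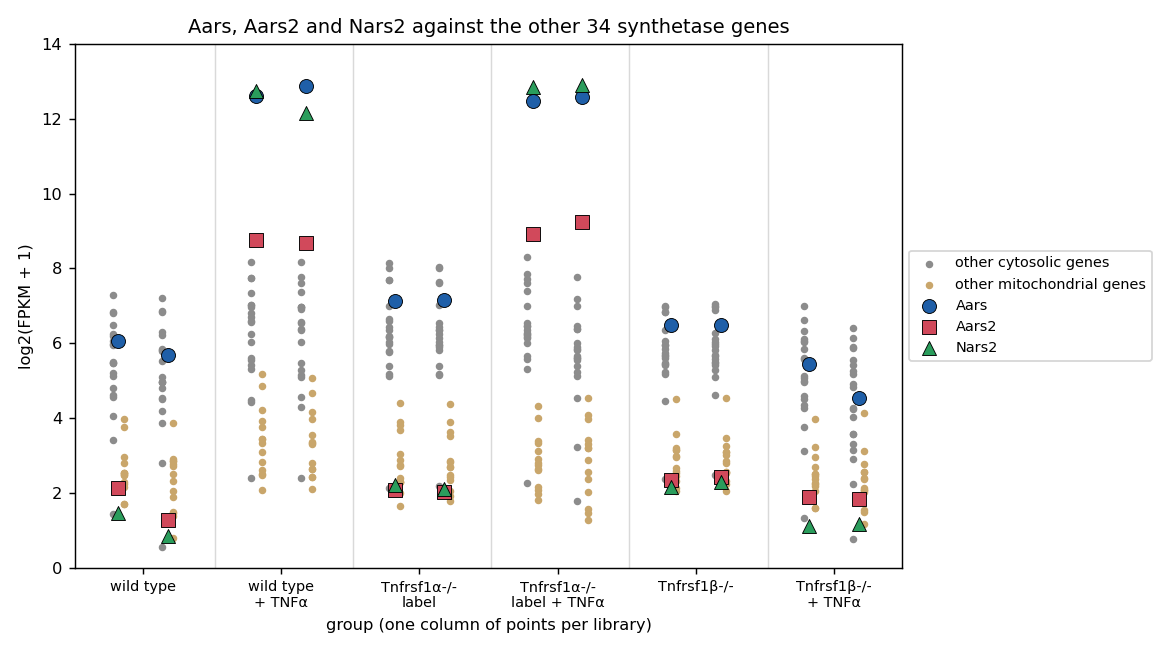
Level, as log2(FPKM + 1), of Aars, Aars2 and Nars2 (large symbols) and of the other 34 synthetase genes (small points) in each library, grouped by genotype and treatment. The 3 genes reach 8.69 to 12.90 in 4 treated libraries and 0.85 to 7.16 in the remaining 8.

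Cytosolic genes exceeded their mitochondrial partners for nearly every amino acid. For 14 amino acids both genes were members, and 12 of the pairs had the higher level in the cytosolic gene in all 12 libraries, from a difference of 0.13 (threonine) to 6.30 (serine). Iars and Iars2 for isoleucine were close throughout, with a difference between -0.87 and 1.00. Nars exceeded Nars2 by 3.66 to 5.51 in 8 libraries and lay below it by 4.53 to 7.01 in the 4 libraries with the high Nars2.

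The cytosolic minus mitochondrial difference of medians was 3.02 and 2.91 in untreated wild type and 3.16 and 3.20 after TNFα. It was 3.63 and 3.67 in the untreated libraries labelled Tnfrsf1α-/-, the widest with all members, and 3.11 and 3.14 in untreated Tnfrsf1β-/-. In the treated libraries it was 3.49 and 2.60 for the Tnfrsf1α-/- label and 2.80 and 2.42 for Tnfrsf1β-/-. Both medians were highest in treated wild type, at 6.60 and 6.55 for cytosolic and 3.45 and 3.35 for mitochondrial genes, so both medians were higher there than in untreated cells. With means in place of medians the difference was 2.96 in untreated and 2.22 in treated wild type, where the mean takes in the high Aars2 and Nars2.

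**Figure D3:**
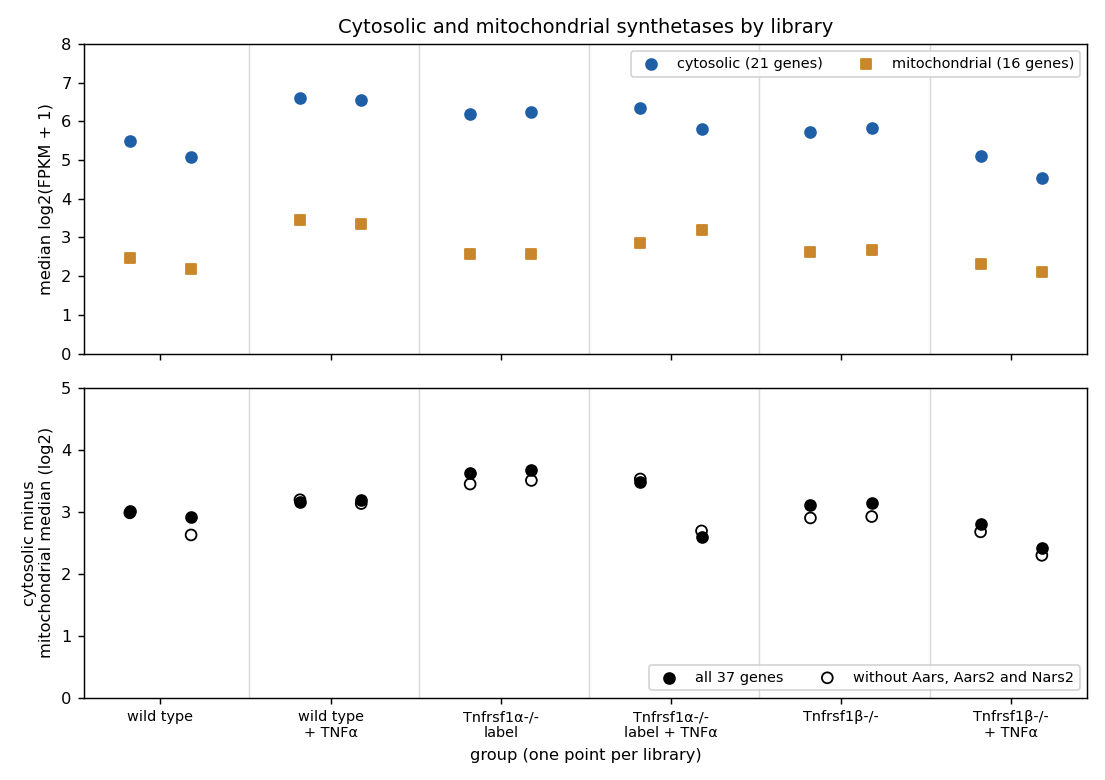
Median level, as log2(FPKM + 1), of the 21 cytosolic and 16 mitochondrial genes in each library (top) and the difference of the medians (bottom), with all members and without Aars, Aars2 and Nars2. With all members the difference is largest in the untreated libraries labelled Tnfrsf1α-/- (3.63 and 3.67), without the 3 genes in the first treated library of that label (3.53), and smallest with all members in the second treated Tnfrsf1β-/- library (2.42).

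What TNFα does to the synthetases in wild-type cells was asked by setting treated against untreated libraries, with limma and Benjamini-Hochberg adjustment over the 11860 genes tested. Of the 37 synthetase genes 23 passed the test, all of them higher, 13 of 21 cytosolic and 10 of 16 mitochondrial. Of all genes 47.2% passed, 31.9% higher and 15.3% lower. The median difference of the members was 0.99 on the log2 scale beside 0.32 for all genes. Without Aars, Aars2 and Nars2 the count was 20 of 34, with a median of 0.97. The count of members fell to 12 with median-ratio scaling of the libraries, 11 higher and 1 lower with a median of 0.58, and to 10 with quantile normalization, 9 higher and 1 lower. Of all genes 45.5% and 45.9% passed in either direction under these scalings, shares above those of the members. Of these calls over all genes only 49.3% and 43.2% were higher, while those of the members were nearly all higher.

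Beyond Nars2 (11.28, SE 0.26, adjusted p 3.4e-09), Aars2 (7.03, SE 0.27, adjusted p 7.0e-08) and Aars (6.88, SE 0.29, adjusted p 1.1e-07), the smallest p among cytosolic genes was that of Mars. This enzyme charges both initiator and elongator methionine tRNA and went from 4.60 and 4.52 to 7.01 and 6.96, a difference of 2.42 (SE 0.28, adjusted p 0.00015). Hars2 and Vars2, the mitochondrial histidine and valine enzymes, rose by 1.56 (SE 0.20, adjusted p 0.00031) and 2.31 (SE 0.37, adjusted p 0.00124). Vars2 was at 4.21 and 4.16 in treated wild type and no higher than 2.87 in any other library. Vars rose by 1.18 (adjusted p 0.00384), and Farsa, Tarsl2 and Sars by 0.86, 1.41 and 0.91 (adjusted p 0.00514, 0.00724 and 0.0134). The rises of Farsa and Sars were 0.38 and 0.43 with median-ratio scaling (adjusted p 0.106 and 0.113), so neither passed there.

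Not every member rose past the threshold. Rars, which charges arginine tRNA, was at 5.96 and 6.22 before and 5.59 and 5.47 after TNFα. Its difference of -0.56 was the lowest of the members and did not pass (SE 0.30, adjusted p 0.16). Wars, which charges tryptophan tRNA and is known as an interferon-induced gene, was at 4.55 and 4.18 before and 4.42 and 4.55 after. Of 8 interferon-response genes 4 were lower with TNFα in wild type and 0 higher, beside 15.3% and 31.9% of all genes.

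The treated wild-type libraries are the 2 in which the hepatocyte and epithelial markers named above were high. Alb, the albumin of hepatocytes, rose by 9.96 (SE 0.15), Krt18, an epithelial keratin, by 9.74 (SE 0.18), and Vim fell by 9.37 (SE 0.36). The 9 progenitor and biliary markers summed to 15.3 and 15.7 with 2 at 0, against 13.8 and 13.6 with 6 at 0 in untreated wild type and 8.55 to 15.1 with 1 to 5 at 0 in the other 8, and Krt7 made up most of this sum in treated and untreated wild type. The 10 mesenchymal markers in the table summed to 10.9 and 11.5 with 3 at 0, against 12.19 and 12.01 with 2 at 0 in untreated wild type and 11.3 to 12.7 with 1 or 2 at 0 in the other 8. Their part in the synthetase result was not tested. In bulk RNA a different mixture of cells and a different amount of RNA per cell cannot be told apart.

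**Figure D4:**
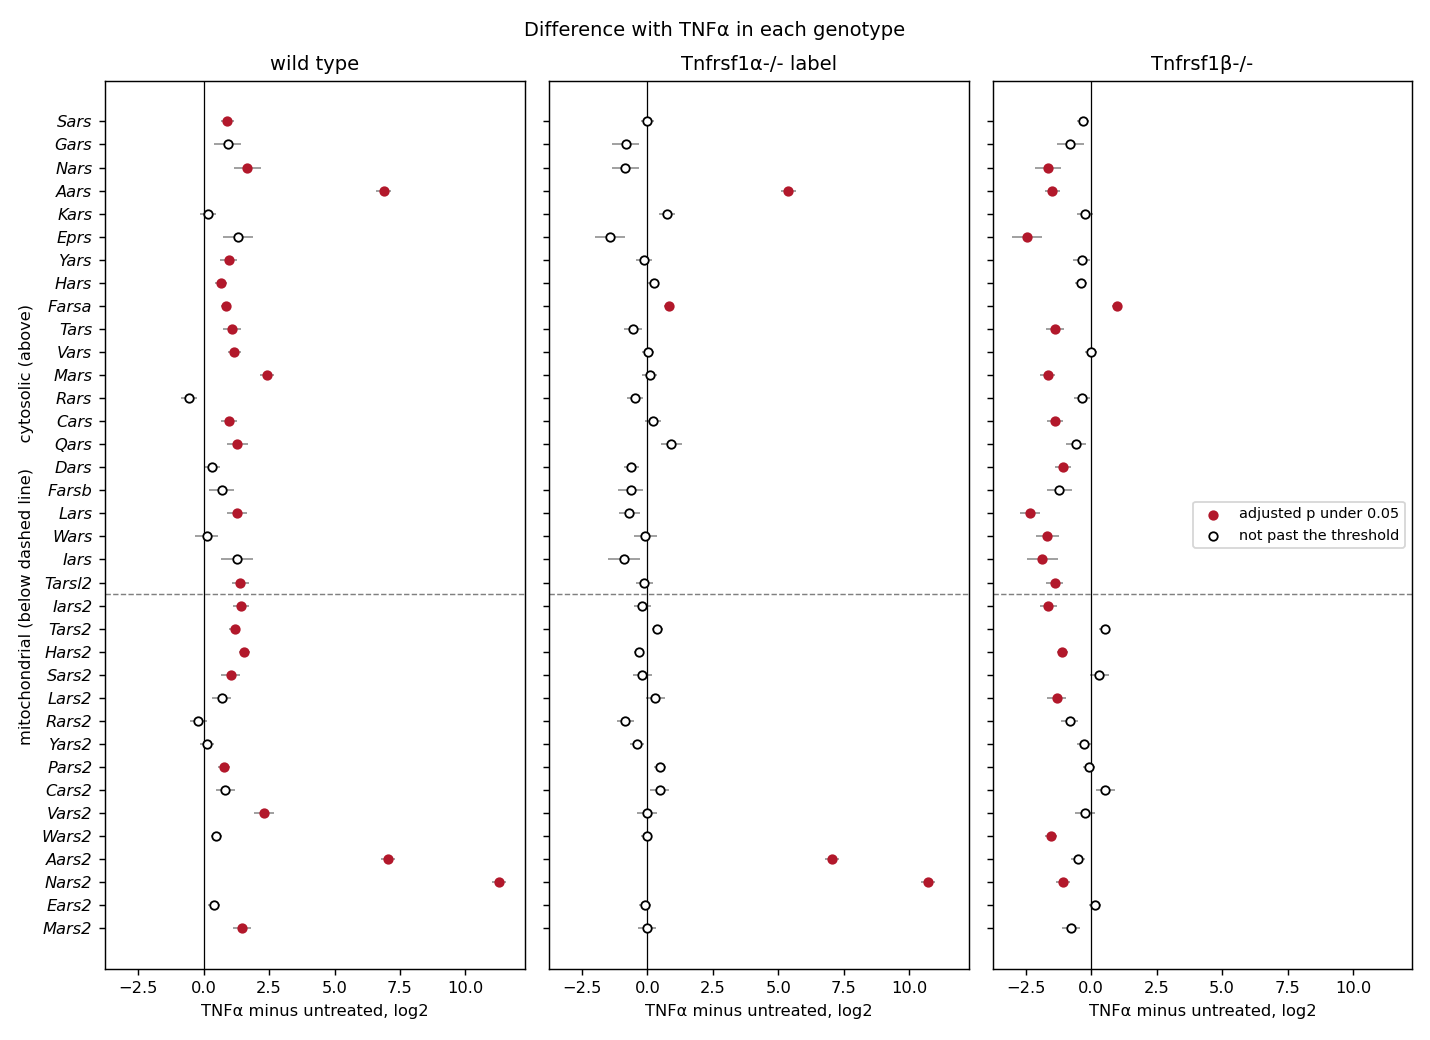
Difference between TNFα-treated and untreated libraries for 36 of the 37 synthetase genes in 3 genotypes, as log2 with bars of 1 SE, cytosolic genes above and mitochondrial genes below the dashed line. Filled points passed an adjusted p of 0.05 (limma). Of all 37 genes this held for 23 in wild type, 4 under the Tnfrsf1α-/- label and 17 in Tnfrsf1β-/-, of which 1 is higher.

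Under the Tnfrsf1α-/- label few members passed the test with TNFα, and the share higher, 10.8%, was near that of all genes. 4 of 37 passed, all higher: Nars2 by 10.72 (SE 0.26, adjusted p 1.2e-08), Aars2 by 7.04 (SE 0.27, adjusted p 1.6e-07), Aars by 5.39 (SE 0.29, adjusted p 1.3e-06) and Farsa by 0.84 (SE 0.18, adjusted p 0.0165). Of all genes 17.3% passed, 9.81% higher and 7.5% lower, and the median difference was -0.02 for the members and -0.02 for all genes. Without the 3 genes 1 of 34 passed. The treated libraries differed most in the cytosolic genes, of which 15 of 20, leaving out Aars, were higher in replicate 1. Iars was at 5.31 and 3.21, Gars at 7.85 and 5.84, Eprs at 7.61 and 5.65 and Nars at 7.73 and 5.89, so these genes were near the untreated level in the first library and below it in the second. Acta2, an actin of smooth muscle and activated stellate cells, was at 8.55 and 0.26 in the same libraries. With replicate 1 left out, 20 members passed, 9 higher and 11 lower, while 59% of all genes passed; with replicate 2 left out 4 passed. The count was 14 with quantile normalization, 4 higher and 10 lower, where 31.6% of all genes passed.

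In Tnfrsf1β-/- cells 16 members fell after TNFα and 1 rose, while 60.5% of all genes passed, 42.9% lower and 17.6% higher. The share of members that fell, 43.2%, was thus that of all genes, and the median difference was -0.79 beside -0.66 for all genes. The falls comprised 11 of 21 cytosolic and 5 of 16 mitochondrial genes. Lars, which charges leucine tRNA and also senses leucine for mTORC1, went from 5.66 and 5.66 to 3.75 and 2.90, a fall of 2.33 (SE 0.38, adjusted p 0.00126). Mars went from 5.45 and 5.47 to 4.27 and 3.31, a fall of 1.66 (adjusted p 0.00132), and Wars2 from 2.95 and 2.86 to 1.59 and 1.16, a fall of 1.53 (SE 0.21, adjusted p 0.00064). In each of these genes both treated libraries lay below both untreated ones. Aars fell by 1.49 (adjusted p 0.00247), Iars2 by 1.63 (adjusted p 0.00265), Cars and Tarsl2 by 1.39 each (adjusted p 0.00491 and 0.00581), Hars2 by 1.09 (adjusted p 0.00197) and Nars2 by 1.07 (adjusted p 0.00677). Farsa alone rose, by 0.99 (SE 0.18, adjusted p 0.00205).

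The size of the difference in this genotype depended on the scaling. With median-ratio scaling, which moved the median of all genes from -0.66 to -0.03, 6 members were higher and 7 lower, with a median of -0.14 for all 37, -0.45 for cytosolic and 0.10 for mitochondrial genes. With quantile normalization 8 were higher and 15 lower. Of all genes 54.4% and 53.8% passed under these scalings. Without the second treated library, in which 19 of 20 cytosolic genes other than Aars were lower than in the first, 9 members passed, 8 of them lower.

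Whether the response to TNFα differs between genotypes was tested as the difference of differences. Against wild type, the response under the Tnfrsf1α-/- label was lower for 12 members and higher for 0, while 34.8% of all genes passed, 22% lower and 12.8% higher, with a median of -0.91 beside -0.44 for all genes. Hars2 stood at -1.88 (SE 0.28, adjusted p 0.0013), Mars at -2.34 (SE 0.39, adjusted p 0.00246), Nars at -2.50 (adjusted p 0.0278) and Aars at -1.50 (adjusted p 0.0218). Before TNFα, Mars, Hars2 and Aars were higher under that label than in wild type, by 1.65, 1.49 and 1.28. After TNFα none of these genes passed as lower than in treated wild type. What part the untreated level has in the response differences was not tested. The count was 3 without the second untreated wild-type library, either treated wild-type library or either untreated library of that label. It was 21 without the first treated library of that label and 6 with only the 4 groups compared.

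The Tnfrsf1β-/- response was lower than that of wild type for 26 members and higher for 0, 17 cytosolic and 9 mitochondrial, while 64.5% of all genes passed, 47.3% lower and 17.3% higher. The median difference was -1.88, beside -1.11 for all genes. Nars2 differed by -12.36 (SE 0.36, adjusted p 3.4e-08), Aars by -8.38 (SE 0.40, adjusted p 4.7e-07) and Aars2 by -7.54 (SE 0.38, adjusted p 6.4e-07). Mars followed at -4.08 (SE 0.39, adjusted p 4.8e-05), Lars at -3.60 (adjusted p 0.00062), Iars2 at -3.06 (adjusted p 0.00054) and Hars2 at -2.65 (adjusted p 9.2e-05). With median-ratio scaling 15 members were lower and 3 higher, where 57.1% of all genes passed, and Hars, Sars and Vars then stood at 0.21, 0.06 and 0.08 without passing. Both comparisons share the wild-type libraries.

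Before any TNFα, the knockout labels were compared with wild type. In the libraries labelled Tnfrsf1α-/- 17 members were higher and 1 lower, beside 36.7% and 17% of all genes (53.7% in all), with a median of 0.77 beside 0.48. The higher genes were mostly cytosolic, 12 of 21 against 5 of 16 mitochondrial. Eprs was at 5.46 and 4.98 in wild type and at 8.14 and 7.998 in these libraries, a rise of 2.85 (SE 0.57, adjusted p 0.00363). Lars was at 4.06 and 3.86 and at 6.42 and 6.34, a rise of 2.43 (SE 0.38, adjusted p 0.00126), and Mars rose by 1.65 (SE 0.28, adjusted p 0.00166). The libraries of both groups did not overlap in these genes. Tars and Aars were higher by 1.37 and 1.28 (adjusted p 0.00864 and 0.00585), Hars2 by 1.49 (SE 0.20, adjusted p 0.00065) and Wars2 by 1.11 (adjusted p 0.00305).

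Both scalings changed these counts. With median-ratio scaling 8 cytosolic genes were higher and 2 lower, with a median of 0.48, while 2 mitochondrial genes were higher and 3 lower, with a median of 0.06. With quantile normalization the counts were 16 higher and 1 lower, with a median of 1.51, and 2 higher and 6 lower, with a median of -0.42. The mitochondrial median thus changed sign with quantile normalization. Of all genes 51.6% and 51.2% passed under these scalings. The 34 members other than Aars, Aars2 and Nars2 made up 0.449% and 0.430% of the summed FPKM in these libraries, 0.293% and 0.304% in untreated Tnfrsf1β-/- and 0.0555% to 0.172% in the other 8. The sum of FPKM was also lowest in the untreated knockout libraries.

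Untreated Tnfrsf1β-/- had 10 members higher and 1 lower, shares below the 36.9% and 17.5% of all genes (54.4% in all), with a median of 0.62 beside 0.47. These were 4 cytosolic genes (Eprs, Lars, Mars and Tarsl2) and 6 mitochondrial ones. Lars rose by 1.70 (SE 0.38, adjusted p 0.00611) and Eprs by 1.80 (SE 0.57, adjusted p 0.0271). Wars2 rose by 1.30 (SE 0.21, adjusted p 0.00149), Hars2 by 1.12 (adjusted p 0.00213), Nars2 by 1.06 (adjusted p 0.00831) and Iars2 by 1.21 (adjusted p 0.0119). With median-ratio scaling 6 members were higher and 8 lower, where 51.6% of all genes passed, so higher members no longer outnumbered lower ones. Eprs and Mars did not pass with that scaling (limma adjusted p 0.072 and 0.253).

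After TNFα, the libraries labelled Tnfrsf1α-/- had 1 member higher than treated wild type and 6 lower, beside 22.7% and 22.4% of all genes (45.2% in all). Wars was higher by 1.45 (SE 0.43, adjusted p 0.025), at 6.47 and 5.40 against 4.42 and 4.55. The lower genes were Sars2 and Vars2, the mitochondrial serine and valine enzymes, at -1.83 and -1.84 (SE 0.36 and 0.37, adjusted p 0.00384 and 0.00439), Vars at -1.08 (adjusted p 0.00636), Farsa at -0.86 (adjusted p 0.0054), Tars2 at -0.84 (adjusted p 0.0126) and Mars2 at -1.04 (adjusted p 0.0345). With only the 2 groups compared, limma called 0 members, and 7 had an unadjusted p under 0.05.

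Treated Tnfrsf1β-/- cells had lower synthetase transcripts than treated wild type. All 37 members had a negative difference, 28 passed, 18 cytosolic and 10 mitochondrial, and 0 were higher. Of all genes 51% passed, 36.3% lower and 14.7% higher, and the median was -1.31 beside -0.41. Nars2, Aars and Aars2 were lower by 11.30, 7.76 and 6.86 on the log2 scale (SE 0.26, 0.29 and 0.27, adjusted p 3.3e-09, 5.1e-08 and 8.1e-08). Mars was at 7.01 and 6.96 in wild type and at 4.27 and 3.31 in Tnfrsf1β-/-, a difference of -3.19 (SE 0.28, adjusted p 2.3e-05). Cars stood at -1.94 (adjusted p 0.00101), Iars2 at -1.85 (adjusted p 0.00154), Tars at -1.68 (adjusted p 0.00338), Yars at -1.61 (adjusted p 0.00351), Hars2 at -1.53 (adjusted p 0.00032) and Sars at -1.48 (adjusted p 0.00108). With median-ratio scaling or quantile normalization 14 passed, all lower. Of all genes 47.2% and 46.4% passed in either direction there, and 54.6% and 55.9% of those calls were higher. The wild-type libraries of this comparison are those with the hepatocyte markers.

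The subunits of the cytosolic phenylalanine enzyme differed in several of these comparisons. Farsa, the catalytic alpha subunit, was at 6.24 and 5.78 in untreated wild type, at 5.18 and 5.15 under the Tnfrsf1α-/- label and at 5.18 and 5.10 in Tnfrsf1β-/-, falls of 0.84 and 0.87 (SE 0.18 for both, adjusted p 0.00503 and 0.00442). Farsb, the beta subunit, was at 4.80 and 4.53, at 6.04 and 5.90 and at 5.23 and 5.27 in the same groups, a rise of 1.31 under the first label (SE 0.48, adjusted p 0.0464). The lower member counted in each untreated comparison was Farsa. After TNFα it was at 6.002 and 6.008 under the Tnfrsf1α-/- label and at 6.12 and 6.14 in Tnfrsf1β-/-, all between the values of untreated wild type. It rose with TNFα in all 3 genotypes, by 0.86, 0.84 and 0.99, and the rise also passed with both other scalings under both knockout labels but with neither in wild type. With only the groups compared it did not pass under the Tnfrsf1α-/- label (adjusted p 0.133). Farsb in treated Tnfrsf1β-/- was at 4.51 and 3.58, below its untreated level. The difference between the subunits was not tested as such. Nor was the part that the lower untreated level under both knockout labels has in the rise of Farsa there.

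The 12 cytosolic genes known as ATF4-driven were described beside the other 9. In the untreated libraries labelled Tnfrsf1α-/- 9 of 12 were higher, with a median of 1.504, and 3 of 9 others higher and 1 lower, with a median of 0.27. In Tnfrsf1β-/- with TNFα 9 of 12 were lower, with a median of -1.57, against 2 of 9 lower and 1 higher, with a median of -0.38. In wild type with TNFα 8 of 12 were higher, with a median of 1.17, against 5 of 9 with a median of 0.69. The shares of all genes in these directions were 36.7%, 42.9% and 31.9%, and they apply to the lists that follow as well. Median-ratio scaling left 7 higher and 0 lower of 12 in the untreated Tnfrsf1α-/- label (median 0.93), 4 lower of 12 in treated Tnfrsf1β-/- (median -0.78) and 2 higher of 12 in wild type (median 0.71). Of all genes 51.6%, 54.4% and 45.5% passed in either direction under that scaling. The scaled counts of the other 9 genes are not given, so the contrast with them is described only without scaling.

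Split by the promoter element instead, the 7 genes that hold it had 6 members higher with TNFα in wild type and a median of 1.28, and the other 14 cytosolic genes, 3 of them without a promoter entry, had 7 higher and a median of 0.89. In Tnfrsf1β-/- with TNFα 6 of 7 were lower, with a median of -1.49, and 5 of 14 lower and 1 higher, with a median of -0.69. In the untreated Tnfrsf1α-/- label 5 of 7 were higher, with a median of 1.37, and 7 of 14 higher and 1 lower, with a median of 0.80. Nars, whose window is printed above, was at 6.18 and 5.83 in untreated wild type, at 7.68 and 7.62 under the Tnfrsf1α-/- label and at 5.60 and 4.83 in treated Tnfrsf1β-/-. The 8 genes of the multi-synthetase complex had 5 higher and 0 lower in the untreated Tnfrsf1α-/- label, with a median of 1.35, and 0 higher and 5 lower with TNFα in Tnfrsf1β-/-, with a median of -1.37.

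Genes of the amino acid stress response were followed as a list of 21, including Atf4 and its targets. Their median level was 4.90 and 4.33 in untreated wild type and 6.64 and 6.74 with TNFα. It was 6.25 and 6.29 in the untreated Tnfrsf1α-/- label, 6.88 and 4.95 in its treated libraries, 5.40 and 5.38 in untreated Tnfrsf1β-/- and 4.59 and 3.56 in treated Tnfrsf1β-/-. The library with the lower cytosolic synthetases was also the lower one for this list in both treated knockout groups. The median of all genes tested was lower in the same libraries. It was 3.71 and 3.57 in the treated Tnfrsf1α-/- label and 2.95 and 2.69 in treated Tnfrsf1β-/-. What part such a shift of the whole library has in this order was not tested. With TNFα 11 rose and 0 fell in wild type, 3 rose and 1 fell under the Tnfrsf1α-/- label, and 2 rose and 10 fell in Tnfrsf1β-/-. The first count stands beside 31.9% of all genes higher, the second beside 9.81% higher, and the falls in Tnfrsf1β-/-, 47.6% of the list, are near the 42.9% of all genes. In the untreated Tnfrsf1α-/- label 13 were higher and 1 lower, beside 36.7% and 17% of all genes. In untreated Tnfrsf1β-/- 5 were higher and 3 lower, 23.8% and 14.3% of the list, beside 36.9% and 17.5% of all genes.

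Among them Shmt2 and Phgdh, enzymes of serine and glycine metabolism, rose with TNFα by 4.68 and 3.96 in wild type (SE 0.24 and 0.22), and Shmt2 by 6.01 under the Tnfrsf1α-/- label. In Tnfrsf1β-/- Slc38a2, an amino acid carrier, fell by 2.48 (SE 0.24, adjusted p 0.00013), while Cebpb, a C/EBP factor, rose by 6.76 (SE 0.27, adjusted p 5.9e-07). Cebpb was lower by 5.99 and 6.48 in the untreated knockout labels. Atf4 itself was at 7.70 and 7.91 in untreated wild type and at 7.37 and 7.54 with TNFα, and was at 8.26 and 8.22 in the untreated Tnfrsf1α-/- label, differences that did not pass (adjusted p 0.406 and 0.294).

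**Figure D5:**
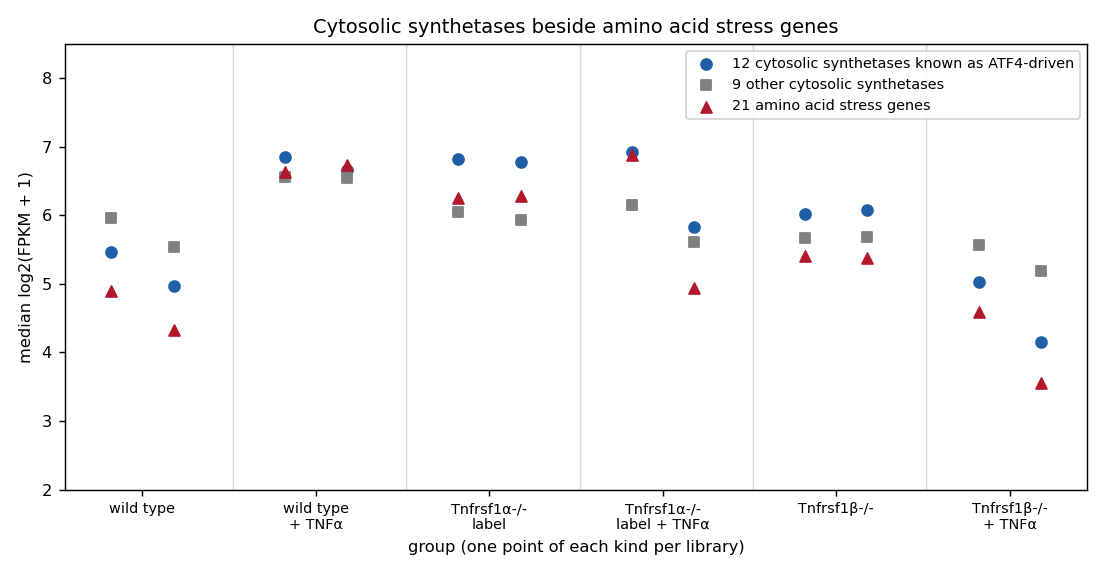
Median level, as log2(FPKM + 1), of the 12 cytosolic synthetases known as ATF4-driven, the 9 other cytosolic synthetases and the 21 amino acid stress genes in each library. In treated libraries the stress genes run from 3.56 (second Tnfrsf1β-/- library) to 6.88 (first library labelled Tnfrsf1α-/-), and the ATF4-driven synthetases are lowest and highest in the same libraries, at 4.15 and 6.93. The median of all genes tested, not drawn, is also lowest and highest there among treated libraries, at 2.69 and 3.71.

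Other genes of charged tRNA supply were followed as lists. Aimp2, a scaffold of the multi-synthetase complex, rose with TNFα by 1.81 in wild type (SE 0.17, adjusted p 3.5e-05), by 1.17 under the Tnfrsf1α-/- label and by 1.36 in Tnfrsf1β-/-. It was lower in the untreated knockout labels by 1.59 and 1.40 on the log2 scale, and the other scaffolds, Aimp1 and Eef1e1, did not pass with TNFα in any genotype. Of 5 elongation factors tested, 2 rose with TNFα in wild type and 3 rose and 1 fell in Tnfrsf1β-/-. Eef1b2, which recharges the tRNA carrier with GTP, was lower by 2.09 and 2.39 in the untreated knockout labels (SE 0.28, adjusted p 0.00066 and 0.00039) and rose by 2.16 with TNFα in Tnfrsf1β-/-. Of 13 genes of mitochondrial translation 6 rose and 0 fell with TNFα in wild type, and 4 rose and 4 fell in Tnfrsf1β-/-. Mtif3, a mitochondrial initiation factor, was at 8.67 and 8.91 in untreated wild type and at 2.95 to 3.10 in all 4 untreated knockout libraries. Of 16 tRNA maturation genes 7 rose and 1 fell with TNFα in wild type, and 5 rose and 7 fell in Tnfrsf1β-/-. Of all genes 31.9% rose and 15.3% fell in wild type. In Tnfrsf1β-/- 42.9% of all genes fell, close to the 43.8% of the tRNA maturation genes and above the 30.8% of the mitochondrial translation genes. In the same comparison 17.6% of all genes rose, beside 60% of the elongation factors, 30.8% of the mitochondrial translation genes and 31.2% of the tRNA maturation genes.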

How the data were processed

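RNA-seq was made from total RNA of 12 libraries, and the table holds 1 value per gene and library. The authors deposited log2-scale FPKM, per the labels; that the values are log2(FPKM + 1) was read from the values. Aligner, build and counter: not given in the sources used here. Of 22730 lines, 346 without a symbol were left out. The 11860 genes whose FPKM averaged 1 or more were tested with limma 3.58.1 (R 4.3.3) on log2(FPKM + 1), with pseudocount 1, 6 group means over all 12 libraries, an intensity trend and Benjamini-Hochberg adjustment over all genes tested in each of 9 contrasts (threshold 0.05). Differences on this scale understate the change of low genes. The script was tested on simulated data. Members and lists were chosen with earlier results of these data known, so lists are described by counts and medians and carry no test. Values are given for up to 6 cytosolic and 4 mitochondrial members per contrast with the smallest p past the threshold, their partners, and up to 3 genes per related list; Farsb, Atf4 and members named only for losing a call under a scaling were chosen after their values were seen. Alternatives were median-ratio scaling, quantile normalization, pseudocounts of 0.1 and 5, no filter, a replicate block, only the groups compared, and leaving out libraries. Promoters are RefSeq's (GRCr8), read with Python 3.11.15. The values of 1 member and 1 promoter window are not reported here. Depth is unknown, so no counting interval is given.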

Additional observations from a re-analysis of the deposited data

Results flagged for a closer look

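The response of synthetase genes to TNFα differed between genotypes by the test of the difference itself (limma, Benjamini-Hochberg adjusted p under 0.05), and these results are listed for that reason. Under the Tnfrsf1α-/- label 12 members had a lower response than in wild type, where 22% of all genes did (34.8% passed in either direction). Among cytosolic genes the difference was -2.50 for Nars, -2.34 for Mars, -1.95 for Lars, -1.63 for Tars, -1.50 for Aars and -1.15 for Vars on the log2 scale. Among mitochondrial genes it was -2.32 for Vars2, -1.88 for Hars2, -1.62 for Iars2 and -1.50 for Mars2. Of the genes named, Mars, Lars, Tars, Aars, Hars2 and Iars2 also passed as higher than wild type before TNFα under that label. Only Vars, Vars2 and Mars2 passed as lower than wild type after TNFα. What part the untreated level has in these differences was not tested.

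In Tnfrsf1β-/- 26 members had a lower response than in wild type, where 47.3% of all genes did (64.5% in either direction). The cytosolic genes with the smallest p were Aars at -8.38, Mars at -4.08, Lars at -3.60, Tarsl2 at -2.79, Tars at -2.45 and Cars at -2.37. The mitochondrial ones were Nars2 at -12.36, Aars2 at -7.54, Iars2 at -3.06 and Hars2 at -2.65. Both sets share the wild-type libraries, of which the treated ones hold the hepatocyte markers, and the part of those markers in the differences was not tested.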

How the results depend on the processing

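Of 80 named results for single members, 1469 of 1606 recomputed values kept their direction and call, 137 kept the direction without passing, and 0 reversed. Leaving out libraries of other groups, fitting only the groups compared or adding the replicate block cannot change a difference, only its call. The 80 were also chosen by the smallest p past the threshold, so the absence of reversals says little. Counts of members called moved more. With TNFα in wild type (23) the count was 12 with median-ratio scaling, 10 with quantile normalization and 12 without the 4 untreated knockout libraries, an alternative chosen after seeing the data. Under the Tnfrsf1α-/- label (4) it was 14 with quantile normalization, and in Tnfrsf1β-/- (17) 26 with only the groups compared. For the response under the Tnfrsf1α-/- label (12) it was 6 with only the groups compared. For untreated Tnfrsf1β-/- (11) it was 17 with quantile normalization, 17 with only the groups compared and 18 without both treated libraries labelled Tnfrsf1α-/-, also chosen after seeing the data. For the treated Tnfrsf1α-/- label (7) it was 11 with either scaling, 0 with only the groups compared (7 at an unadjusted p under 0.05) and 4 without the untreated knockout libraries. For treated Tnfrsf1β-/- (28) it was 14 with either scaling and 18 without the untreated knockout libraries. The cause was not tested.

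Leaving out 1 library at a time gave 10 to 29 for TNFα in wild type, lowest without the first treated wild-type library, and 3 to 20 and 9 to 25 under the Tnfrsf1α-/- and Tnfrsf1β-/- labels. It gave 3 to 21 and 21 to 30 for the response differences. It gave 7 to 25 and 5 to 18 for the untreated labels, lowest without the second untreated wild-type library, and 4 to 14 and 18 to 32 for the treated ones. Where 1 library remained in a group it was assumed to vary like the others. Without the first treated library labelled Tnfrsf1α-/- the count was the highest, or tied for it, in every comparison except that of the treated Tnfrsf1α-/- label with wild type.

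The replicate block gave 24, 4 and 19 for TNFα in the 3 genotypes, 15 and 27 for the response differences, 18 and 15 for the untreated and 10 and 30 for the treated labels. Same-numbered libraries correlated between -0.17 and 0.24 over 15 pairs of groups, 9 of them over 0.1. Since not every pair was, the numbers were not taken to pair the libraries.

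The mean cytosolic minus mitochondrial difference, with quantile normalization, was 2.60 in untreated and 2.79 in treated wild type, 4.57 in the untreated Tnfrsf1α-/- label, and 3.99 untreated and 2.27 treated in Tnfrsf1β-/-. With a pseudocount of 0.1 it was 3.22 and 3.29 in wild type and 3.87 and 3.32 in the untreated labels. With means over members it was 2.96 in untreated and 2.22 in treated wild type and 3.51 and 2.95 in the untreated labels, where median-ratio scaling gave 3.60 and 3.08. Without Aars, Aars2 and Nars2 it was 2.81 in untreated wild type and 3.48 and 2.91 in the untreated labels.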

Other observations

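Fars2, the mitochondrial phenylalanine enzyme that the naming rule leaves out, was at 3.14 and 3.11 in untreated wild type and at 4.06 and 4.04 after TNFα, a rise of 0.92 (SE 0.19, limma adjusted p 0.00423). It was at 3.42 and 3.39 and at 3.63 and 3.33 before and after TNFα under the Tnfrsf1α-/- label. In Tnfrsf1β-/- it was at 2.88 and 2.95 before and at 2.85 and 2.89 after.

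Of the 3 genes whose products clear mischarged tRNA, 2 rose with TNFα in wild type, where 31.9% of all genes did: Dtd1 by 1.09 and Dtd2 by 1.28. Myc, which drives growth genes through the E-box, differed by 1.20 in the same comparison without passing (adjusted p 0.0688), fell by 1.38 with TNFα in Tnfrsf1β-/- (adjusted p 0.034) and was higher by 1.38 in the untreated Tnfrsf1α-/- label (adjusted p 0.038).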
